A study of Xenopus laevis with 14 samples.

Results

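This account follows 6 genes of white blood cells, mpo, epx, prtn3, prss57, lcp1 and ctss, in dissected anterior endoderm of Xenopus laevis embryos that were made to express the pancreatic transcription factor Ptf1a. The members are all probe sets whose platform symbol, without the ending .L or .S, is one of these 6 names. They are 11 probe sets for 10 gene copies, out of 24218 probe sets in the data set. Of the 11, 10 were measured at stage NF32 and all 11 at NF36, because ctss.L had values at NF36 alone. The frog is allotetraploid, and .L and .S name the long and short chromosome copy of a gene. Reading of both copies by a single probe set was not tested.

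4 groups of arrays were compared. Ptf1a NF32 and GFP NF32 had 3 arrays each, and Ptf1a NF36 and GFP NF36 had 4 each, both tailbud stages. All embryos received 400 pg of GFP mRNA in the dorsal vegetal blastomeres at cleavage, and those of the Ptf1a groups also received 800 pg of Ptf1a mRNA, so the total mRNA dose differed along with Ptf1a. The labels give neither strain nor genotype. Each array holds RNA of about 15 pooled explants, and a Ptf1a and a GFP array with the same number came from 1 batch of embryos. The comparisons ask which genes respond to added Ptf1a. The injected mRNA is not limited to a cell type by a promoter.

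Granulocytes carry granules packed with peroxidases and serine proteases, which these cells release onto microbes or into the vacuoles that hold them. Macrophages digest what they take up in lysosomes rich in cathepsins. In frog embryos the first myeloid cells arise in ventral mesoderm towards the front of the embryo and then migrate through the tissues. Dissected explants can carry such cells along with endoderm. In bulk RNA, fewer cells of a type and less RNA per cell cannot be told apart.

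Intensities below are the deposited linear values. Array means lay between 140.19 and 140.36 at NF32 and at 100 at NF36, so each stage had been scaled apart and levels are not compared between stages. The share of dim probe sets, those with an intensity under 16, was 13.0% to 15.1% per array at NF32 and 25.4% to 27.5% at NF36. Changes are Ptf1a minus GFP in log2(intensity + 16) with SE, which understates the folds of dim probe sets. Their adjusted p-values come from limma over all probe sets of a stage, with 0.05 as the threshold. The number of arrays limits the precision of every value. The ptf1a probe set read 209.5, 386.0 and 347.1 in the Ptf1a arrays of NF32, against 18.3, 14.9 and 7.7 in the GFP arrays. At NF36 it read 117.2, 143.1, 319.4 and 136.4 in the Ptf1a arrays, against 25.5, 33.3, 31.5 and 29.8 in the GFP arrays. Every array of the Ptf1a groups lay above every GFP array of its stage.

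At NF32 all 10 probe sets were lower in Ptf1a explants than in GFP explants. Each of the 10 passed the threshold, against 1.20% of all probe sets that passed lower at this stage. In each of the 10 every Ptf1a array also lay below every GFP array, a pattern that 11.0% of all probe sets showed. With the batch of embryos as a block all 10 passed too, against 4.19% of all probe sets that passed lower in that fit. The changes ran from -3.15 to -1.01 with a median of -2.05, against a median of -0.01 over all probe sets. The Ptf1a mean was 4.53% of the GFP mean in the member that kept least, prtn3.S, and 36.8% in the one that kept most, ctss.S.

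The peroxidase genes fell at NF32. In mammals mpo encodes myeloperoxidase, which makes hypochlorous acid in neutrophil granules, and epx encodes the related peroxidase of eosinophils. The brighter of the pair of mpo.L probe sets read 16.9, 56.6 and 47.7 in Ptf1a explants, against 409.1, 539.5 and 439.3 in GFP explants (-3.15 ± 0.29, limma adjusted p = 0.00397). The dimmer mpo.L probe set read 8.4, 25 and 32.1 in Ptf1a explants, against 85.7, 126.0 and 130.4 in GFP explants (-1.82 ± 0.27, limma adjusted p = 0.0187). Both probe sets of this copy moved the same way, the dimmer one by less on the scale used. mpo.S read 17.9, 60.8 and 97.8 in Ptf1a explants, against 251.7, 387.8 and 424.6 in GFP explants (-2.44 ± 0.43, limma adjusted p = 0.0322). epx.L read 3.7, 16.8 and 19.2 in Ptf1a explants, against 155.5, 208.1 and 220.6 in GFP explants (-2.88 ± 0.24, limma adjusted p = 0.00253). Batch 1 gave the lowest value of its group on both sides for all 4 peroxidase probe sets.

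The granule serine protease genes fell as well. In mammals prtn3 encodes proteinase 3, an elastase-like enzyme of neutrophil granules, and prss57 encodes a further granule protease of neutrophils with a different cleavage preference. prtn3.S read 3.6, 12.2 and 10.9 in Ptf1a explants, against 189.9, 230.9 and 168.9 in GFP explants (-3.10 ± 0.17, limma adjusted p = 0.00102). prtn3.L read 1.6, 4.8 and 4.8 in Ptf1a explants, against 53.3, 59.4 and 52.1 in GFP explants (-1.85 ± 0.09, limma adjusted p = 0.000952). All 6 values of these copies in Ptf1a explants were below 16, where many probe sets of the array lie. prss57.L read 5.5, 15.5 and 19.4 in Ptf1a explants, against 101.5, 138.4 and 127.0 in GFP explants (-2.25 ± 0.20, limma adjusted p = 0.00351). prss57.S, the dimmest member at this stage in GFP explants, read 1.0, 0.7 and 3.3 in Ptf1a explants, against 33.0, 28.5 and 35.2 in GFP explants (-1.45 ± 0.09, limma adjusted p = 0.00123). For all 4 protease copies the highest Ptf1a value was less than the lowest GFP value by a wide margin, 19.4 against 101.5 in prss57.L.

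The genes for a cytoskeletal and a lysosomal protein of leukocytes also fell. lcp1 encodes L-plastin, which bundles actin filaments and is made by leukocytes generally. lcp1.S read 4.9, 13.5 and 11.6 in Ptf1a explants, against 56.7, 99.5 and 71.8 in GFP explants (-1.81 ± 0.20, limma adjusted p = 0.00677). ctss encodes cathepsin S, a cysteine protease that mammalian macrophages and other antigen-presenting cells use to trim the invariant chain. ctss.S read 21.8, 21.1 and 28.4 in Ptf1a explants, against 55.4, 78.8 and 59.8 in GFP explants (-1.01 ± 0.13, limma adjusted p = 0.0125). ctss.S had the smallest change of the 10.

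8 of the 10 calls of NF32 held in each of the 6 fits without 1 array. mpo.S did not pass without GFP replicate 1, 2 or 3 or Ptf1a replicate 2 (adjusted p = 0.0561, 0.152, 0.0812 and 0.0862), and the dimmer mpo.L set did not pass without GFP replicate 2 or Ptf1a replicate 2 (0.101 and 0.0559).

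**Figure D1:**
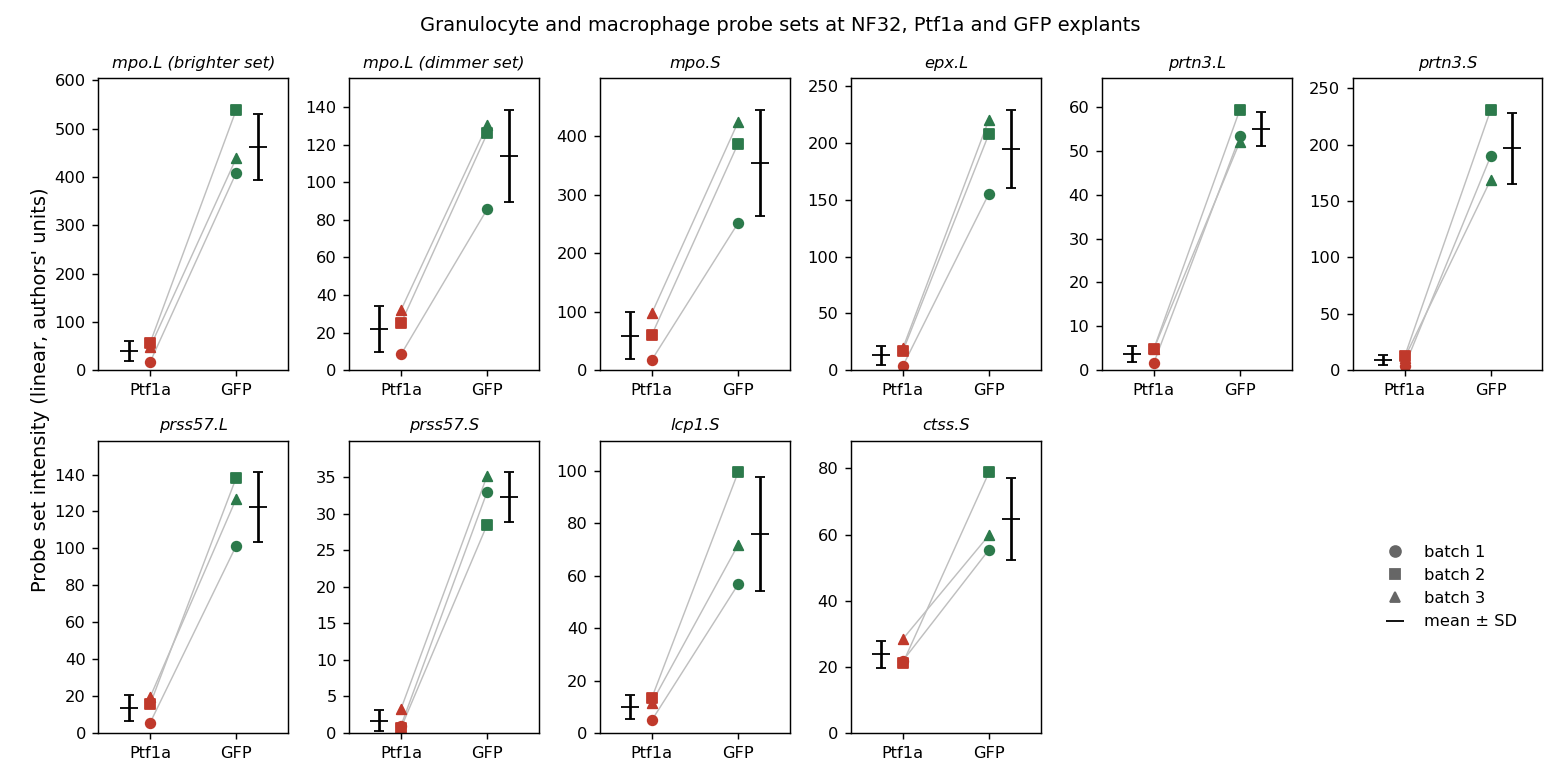
Intensity of the 10 probe sets measured at NF32 in Ptf1a (left) and GFP (right) explants, each panel on its own linear axis from 0. Symbols are arrays, grey lines join arrays of 1 batch of embryos, and black bars give the mean ± SD of 3 arrays. In every panel all Ptf1a points lie below all GFP points.

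At NF36 the peroxidase and protease genes and lcp1 were lower again in Ptf1a explants, by less on the log2 scale, while the groups overlapped for ctss. Of 11 probe sets, 6 passed the threshold, against 1.89% of all probe sets that passed lower at this stage. 9 of the 11 did not overlap between the groups, with every Ptf1a array below every GFP array, as in 5.49% of all probe sets. All 11 changes were below 0, from -1.37 to -0.10 with a median of -0.85, against a median of 0.00 over all probe sets. With the batch of embryos as a block, 9 of the 11 passed, against 10.8% of all probe sets that passed lower in that fit.

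Among peroxidase genes at NF36, the brighter mpo.L set and epx.L passed the threshold, lower. The brighter mpo.L set read 100.9, 84.8, 207.5 and 121.7 in Ptf1a explants, against 307.8, 250.6, 346.1 and 260.1 in GFP explants (-1.14 ± 0.23, limma adjusted p = 0.0292). epx.L read 33.8, 37.4, 92.8 and 43.7 in Ptf1a explants, against 123.5, 116.0, 151.6 and 133.3 in GFP explants (-1.18 ± 0.23, limma adjusted p = 0.0253). Ptf1a replicate 3 was the highest of its group for both genes and still lay below all 4 GFP arrays. mpo.S read 49.2, 61.3, 83.4 and 66.5 in Ptf1a explants, against 105.6, 88.9, 94.6 and 99.9 in GFP explants (-0.50 ± 0.12, limma adjusted p = 0.0527, and 0.0230 with the batch block). The dimmer mpo.L set read 20.8, 31.8, 29.1 and 26.5 in Ptf1a explants, against 35.6, 48.8, 40.2 and 34.0 in GFP explants (-0.37 ± 0.11, limma adjusted p = 0.0911, and 0.00586 with the batch block). The groups of these 2 probe sets did not overlap, and both missed the threshold without the block.

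All 4 granule protease copies were lower at NF36, and 3 of the 4 passed the threshold. prtn3.S read 35.3, 33.9, 96.8 and 22.8 in Ptf1a explants, against 136.3, 120.1, 162.1 and 116.9 in GFP explants (-1.36 ± 0.29, limma adjusted p = 0.0360). prtn3.L read 9.9, 11.2, 37.5 and 5.1 in Ptf1a explants, against 76.2, 54.2, 81.6 and 40.1 in GFP explants (-1.37 ± 0.29, limma adjusted p = 0.0346). Replicate 3 of both groups was the highest for these copies. prss57.L read 43.9, 42.3, 107.8 and 46.0 in Ptf1a explants, against 135.2, 111.2, 147.6 and 114.0 in GFP explants (-0.98 ± 0.24, limma adjusted p = 0.0495). prss57.S read 5.4, 5.5, 17.7 and 8.1 in Ptf1a explants, against 22.7, 18.8, 31.1 and 19.9 in GFP explants (-0.65 ± 0.16, limma adjusted p = 0.0532, and 0.00211 with the batch block). In prss57.L the other 3 Ptf1a arrays lay within 42.3 to 46.0, and replicate 3, at 107.8, lay just under the lowest GFP array, at 111.2.

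lcp1.S fell at NF36, and neither ctss copy passed the threshold. lcp1.S read 20.2, 15.4, 30.9 and 24.9 in Ptf1a explants, against 69.4, 44.9, 51.3 and 49.8 in GFP explants (-0.85 ± 0.14, limma adjusted p = 0.0164). ctss.S read 45.0, 27.7, 41.2 and 36.7 in Ptf1a explants, against 46.4, 42.9, 47.0 and 41.8 in GFP explants (-0.18 ± 0.10, limma adjusted p = 0.394). ctss.L was dim, with 5.7, 1.8, 3.0 and 3.9 in Ptf1a explants against 6.9, 4.7, 4.3 and 4.3 in GFP explants (-0.10 ± 0.08, limma adjusted p = 0.555). The groups overlapped for both ctss copies.

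Most NF36 calls were lost in at least 1 fit without 1 array, and the calls over all probe sets changed too. The fits without 1 array, here and elsewhere, did not use the batch block. Over all probe sets 446 passed lower with every array, 97 without Ptf1a replicate 4 and 481 without Ptf1a replicate 3. The median change of the 11 members stayed between -0.95 and -0.75 in the fits without 1 array. Only lcp1.S held in each of the 8 fits without 1 array. Without Ptf1a replicate 3, the array with the highest value of its group in 8 of 11 probe sets, 8 passed and the median change was -0.95. 2 passed without GFP replicate 4 or Ptf1a replicate 1, and 1 without any of the other 5 arrays. Ptf1a replicate 3 also had the highest ptf1a value of its group, 319.4. At NF32 the array with the lowest ptf1a value, 209.5, was the one with the lowest value of its group in 8 of 10 member probe sets. At NF36 the array with the lowest ptf1a value, 117.2, was the lowest of its group in 4 of 11. In the brighter mpo.L set the GFP arrays were also lowest in replicate 1 of NF32, at 409.1, and highest in replicate 3 of NF36, at 346.1. The order of GFP arrays did not match that of their partners in every member. mpo.S of NF36 was highest in replicate 1 of GFP, at 105.6, and in replicate 3 of Ptf1a, at 83.4. A link of ptf1a level to member level was not tested.

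**Figure D2:**
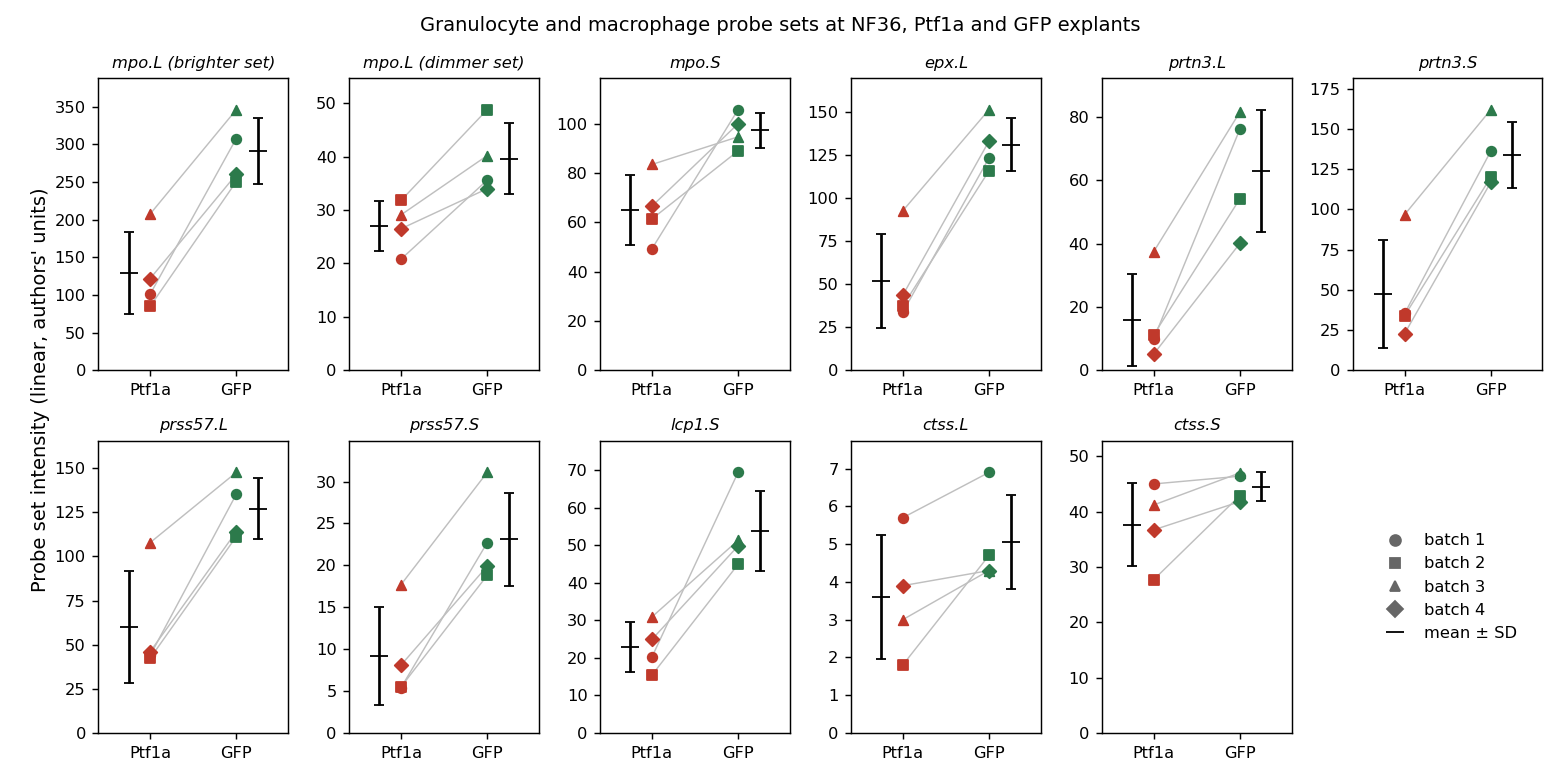
Intensity of the 11 probe sets measured at NF36 in Ptf1a (left) and GFP (right) explants, each panel on its own linear axis from 0. Symbols are arrays, grey lines join arrays of 1 batch of embryos, and black bars give the mean ± SD of 4 arrays. Ptf1a replicate 3, drawn as a triangle, is the highest of its group in 8 panels, and the groups overlap only for ctss.L and ctss.S.

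Within a batch of embryos the direction was the same throughout. The Ptf1a array was below its GFP partner in all 10 probe sets of each of the 3 batches of NF32, with median log2 differences of -2.25, -2.13 and -1.83. It was below its partner in all 11 probe sets of each of the 4 batches of NF36, with median differences of -1.24, -0.96, -0.48 and -0.69. The highest within-batch difference was -0.77 at NF32 and -0.03 at NF36.

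The fall was smaller at NF36 than at NF32 in all 10 probe sets measured at both stages. The test of that difference was passed by 3 without the batch block and by 9 with it. A limma contrast of the changes over the 22251 probe sets with values at both stages called 3 of the 10, against 0.436% of all probe sets called in that direction. They were the brighter mpo.L set (-1.14 at NF36 and -3.15 at NF32, difference 2.01 ± 0.40, adjusted p = 0.0376), the dimmer mpo.L set (difference 1.45 ± 0.29, adjusted p = 0.0374) and ctss.S (difference 0.83 ± 0.17, adjusted p = 0.0443). Next were epx.L (1.70 ± 0.36, adjusted p = 0.0521), mpo.S (1.95 ± 0.44, 0.0641) and prtn3.S (1.74 ± 0.40, 0.0675). The smallest difference was that of prtn3.L (0.48 ± 0.37, adjusted p = 1.00), whose changes at NF36 and NF32 were -1.37 and -1.85. prtn3.L read 1.6, 4.8 and 4.8 in Ptf1a explants of NF32, under the offset of 16, which shrinks that change. Its Ptf1a mean was 6.80% of the GFP mean at NF32 and 25.3% at NF36, against 36.8% and 84.6% for ctss.S. In Ptf1a explants of NF32 prtn3.S (3.6, 12.2 and 10.9) and prss57.S (1.0, 0.7 and 3.3) also lay under 16. Their differences between stages were 1.74 and 0.80. The part of the offset in the small difference of prtn3.L was not tested. With the batch block 9 of the 10 passed, against 3.71% of all probe sets, prtn3.L being the exception (adjusted p = 0.221). Without 1 array between 0 and 5 passed, 0 of them without GFP replicate 2 or 3 or Ptf1a replicate 1 of NF32, or without any GFP replicate or Ptf1a replicate 4 of NF36. 5 passed without Ptf1a replicate 1 of NF36, 1 without Ptf1a replicate 2 of NF32, and 2 without Ptf1a replicate 3 of NF32 or Ptf1a replicate 2 of NF36. The contrast compares changes and not levels, and the series description names different chips for the stages.

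**Figure D3:**
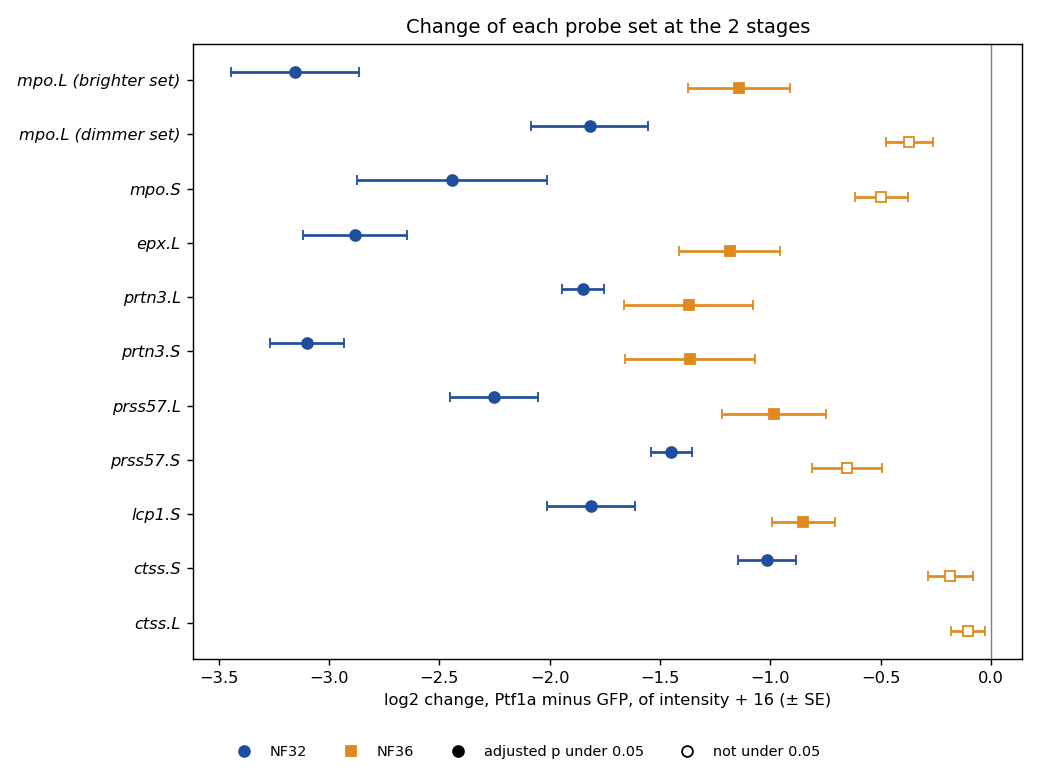
Log2 change of each probe set, Ptf1a minus GFP, at NF32 (circles) and NF36 (squares), with SE as horizontal bars and filled symbols where the adjusted p is under 0.05. All 10 NF32 symbols are filled and lie left of their NF36 partners, and 6 of 11 NF36 symbols are filled.

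Genes of other parts of the myeloid programme were read from 5 lists. Together these lists held 36 measured gene copies at NF32, each read by its brightest probe set, of which 10 passed lower and 0 higher (15 lower with the batch block), with a median change of -0.22. At NF36 they held 43 copies, of which 2 passed lower and 2 higher (15 lower and 5 higher with the block), with a median of -0.08. The pooled medians mix dim and bright copies. At NF32 the GFP means were 13.5 for syk.L and 15.1 for tyrobp.S, where the offset shrinks a fall. They were 1708 for lgals3.L and 1117 for cd63.L. The pooled medians are therefore not set against the member medians. Over all probe sets 1.96% passed higher at NF32 and 3.59% at NF36, without the block. With the block 2107 of all probe sets passed at NF32, 958 of them lower. At NF36 5531 passed with it, 2554 of them lower. Many probe sets thus passed higher with the block, and their share was not counted. Counts of copies higher with the block, here and in the lists below, are therefore not read as a result. Without 1 array the NF32 count of 10 other myeloid copies lower was between 1, without GFP replicate 2, and 7. It was 5 without GFP replicate 1, 6 without Ptf1a replicate 1 and 4 without Ptf1a replicate 2. Over all probe sets 274 passed lower with every array of NF32 and 73 without GFP replicate 2. The NF36 count of 2 was 1 without GFP replicate 1, 2 or 4 or Ptf1a replicate 2 or 4, and 4 without Ptf1a replicate 3.

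The NADPH oxidase genes fell at NF32. This enzyme makes superoxide, from which the hydrogen peroxide used by myeloperoxidase forms. 3 of 3 measured copies passed lower. cybb.L, for the catalytic subunit, averaged 32.6 ± 17.5 in Ptf1a explants and 155 ± 33.6 in GFP explants (SD, n = 3 each, limma change -1.87 ± 0.29, adjusted p = 0.0229). cyba.L, for the membrane partner of that subunit, averaged 33.2 ± 11.9 in Ptf1a explants and 130.1 ± 25 in GFP explants (SD, n = 3 each, limma change -1.59 ± 0.21, adjusted p = 0.0141). rac2.L, for the GTPase that activates the oxidase, changed by -1.13 ± 0.15 (adjusted p = 0.0135). At NF36 rac2.L passed lower (-0.73 ± 0.10, adjusted p = 0.00952), whereas cybb.L (-0.45 ± 0.15, adjusted p = 0.121) and cyba.L (0.02 ± 0.23, adjusted p = 0.989) did not.

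Receptors and signalling genes of leukocytes had 5 of 15 measured copies lower and 0 higher at NF32 (median -0.35). They were the copies arhgdib.S (-1.80 ± 0.17, limma adjusted p = 0.0044) and arhgdib.L (-1.18 ± 0.20), cxcr1.S (-0.83 ± 0.13), for a chemokine receptor that binds interleukin 8 in mammals, syk.L (-0.46 ± 0.08), for a kinase of immune receptors, and csf3r.L (-0.59 ± 0.11), for the receptor of the granulocyte growth factor G-CSF. Of these NF32 calls, csf3r.L held in 0, syk.L and arhgdib.L in 1 and cxcr1.S in 2 of 6 fits without 1 array. syk.L was dim, with 4.1, 5.0 and 7.2 in Ptf1a explants against 13.8, 13.3 and 13.3 in GFP explants. At NF36 1 of 17 passed, lower, arhgdib.L (-0.89 ± 0.17, limma adjusted p = 0.0247), and 10 passed lower with the batch block. syk.L (-0.24 ± 0.06, adjusted p = 0.0533) was among those that passed only with it (0.0106).

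Of 9 measured copies of myeloid transcription factors at NF32, 2 passed lower, cebpa.L and runx1.L, and 0 higher (median 0.01). cebpa encodes a factor that mice need to form granulocytes and that liver and gut tissue also express. cebpa.L averaged 88.0 ± 18.3 in Ptf1a explants and 218 ± 31.6 in GFP explants (SD, n = 3 each, limma change -1.17 ± 0.15, adjusted p = 0.0129). Its other copy, cebpa.S, changed by -0.96 ± 0.21 (limma adjusted p = 0.0686, and 0.00402 with the block). runx1.L, for a factor needed to make blood stem cells, changed by -0.45 ± 0.08 (adjusted p = 0.0376) and held in 0 of 6 fits without 1 array. At NF36 cebpd.S, for a factor that inflammatory signals raise in mammals, passed higher (1.61 ± 0.19, limma adjusted p = 0.00589), and cebpa.L (-0.70 ± 0.20) missed the threshold (adjusted p = 0.0835, and 0.00166 with the block). The brighter copy cebpd.L did not pass at NF36 (-0.08 ± 0.19, limma adjusted p = 0.923), so the rise was seen in 1 copy of this gene.

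Other granule protein genes passed the threshold at neither stage, of 5 copies at NF32 and 8 at NF36 (medians -0.18 and 0.00). Of 23 listed genes only 4 were measured at NF32 and 7 at NF36, so the medians leave most of the list unread. The copies measured at NF36 alone, lyz.L, pglyrp1.S and gzma.L, were dim. Their GFP means were 4.05, 4.025 and 12.4, levels at which a fall can hardly be read. With the batch block 1 passed lower at NF32, and 2 lower and 1 higher at NF36. At an unadjusted p under 0.05 in limma, serpinb1.L and cd63.S had lower values in Ptf1a explants at NF32, and at NF36 serpinb1.L had lower and pglyrp1.S higher values. pglyrp1.S read 7.0, 6.7, 11.4 and 4.8 in Ptf1a explants, against 2.8, 4.7, 5.1 and 3.5 in GFP explants (limma adjusted p = 0.211). Its groups overlapped. The share of all probe sets under that unadjusted p was not counted, for this list or those below. serpinb1 encodes an inhibitor of neutrophil granule proteases, and serpinb1.L had a log2 difference of -1.06 ± 0.23 at NF32 (adjusted p = 0.0645, and 0.0154 with the block) and of -1.16 ± 0.42 at NF36 (adjusted p = 0.163, and 0.0108 with the block). ctsc, whose product activates granule serine proteases in mammals and which many tissues express, had log2 differences of -0.05 ± 0.10 at NF32 and 0.06 ± 0.07 at NF36 for ctsc.L. It is named after its values were seen.

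The macrophage side of the gene set could be checked only in part. Of 16 macrophage markers, 4 were measured at NF32 and 6 at NF36, and none passed lower at either stage in limma, also with the block. marco, mpeg1 and cd68 of this list, and csf1r of the leukocyte list, had no measured copy at either stage. lgals3.L, which epithelia also express, passed higher at NF36, at 589 ± 46.8 in Ptf1a explants and 246 ± 59.4 in GFP explants (SD, n = 4 each, limma change 1.24 ± 0.15, adjusted p = 0.00637). c1qb.L and c1qc.L, for complement subunits that macrophages make, averaged 3.00 and 4.23 in Ptf1a explants and 3.78 and 5.70 in GFP explants at NF36. slc11a1.L (0.57 ± 0.17, adjusted p = 0.143) and lgmn.L (0.17 ± 0.09, adjusted p = 0.462) had the smallest p-values of this list at NF32. At NF36 lgmn.L, for a lysosomal protease, had a log2 difference of -0.31 ± 0.12 (adjusted p = 0.190), read by another probe set than at NF32, so its values at the stages are not comparable. The macrophage side of the gene set thus rests on ctss alone among its members.

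Relatives of ctss and lcp1 made no calls at NF32. Of 9 other cathepsin copies 0 passed at NF32 in limma (median -0.05), and ctsz.L alone (-0.17 ± 0.07, adjusted p = 0.290) was under an unadjusted p of 0.05. At NF36 2 of 11 passed lower, ctse.L (-1.93 ± 0.15, limma adjusted p = 0.00213) and ctse.S (-0.66 ± 0.09), copies of a protease of the stomach lining. pls3.L, for the plastin of non-blood tissues, had log2 differences of -0.04 at NF32 (limma adjusted p = 0.914) and -0.24 at NF36 (adjusted p = 0.327, and 0.0111 with the block).

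Some genes for signals to myeloid cells rose. Of 5 measured copies, 2 passed higher at NF32 and 3 at NF36. cxcl8.L, for a chemokine that attracts neutrophils through the receptor that cxcr1 encodes in mammals, averaged 895 ± 237 in Ptf1a explants and 69.9 ± 52.7 in GFP explants of NF32 (SD, n = 3 each, limma change 3.59 ± 0.47). At NF36 it averaged 576 ± 380 in Ptf1a explants and 72.0 ± 116 in GFP explants (SD, n = 4 each, limma change 3.32 ± 0.77, adjusted p = 0.0444). il1b.S, for an inflammatory cytokine, changed by 3.41 ± 0.56 at NF32 and 2.87 ± 0.56 at NF36 (limma adjusted p = 0.0268 and 0.0254). cxcl12.L, for a chemokine that holds blood cells in their niches, averaged 19.1 in Ptf1a explants and 7.73 in GFP explants of NF36 (limma change 0.55 ± 0.12, adjusted p = 0.0342). Among the calls named from the myeloid, cathepsin and signal lists, arhgdib.S at NF32 and rac2.L, cebpd.S, lgals3.L, ctse.L and ctse.S at NF36 held in every fit without 1 array, and the others were lost in at least 1.

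**Figure D4:**
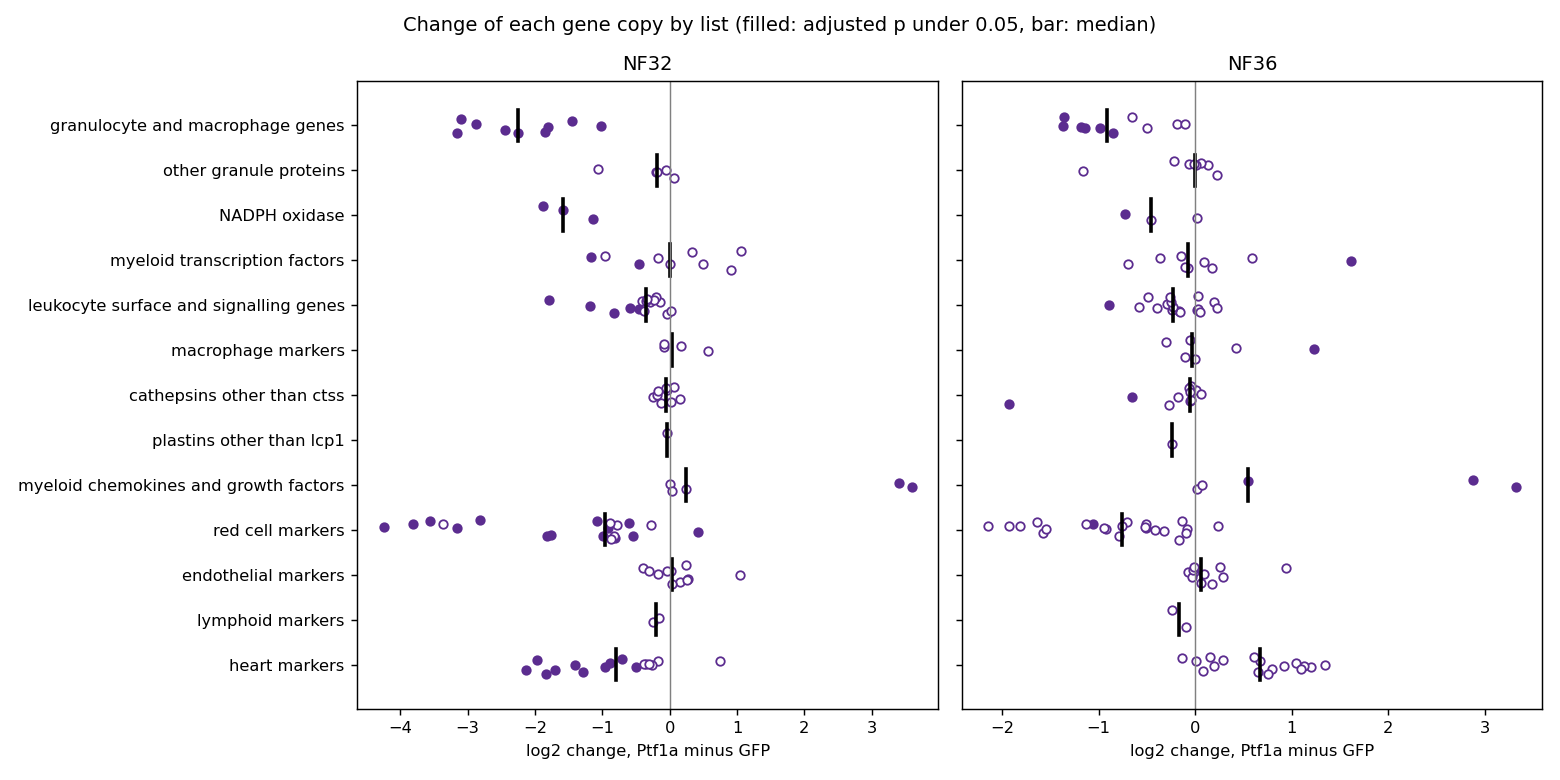
Log2 change, Ptf1a minus GFP, of every measured gene copy by list at NF32 and NF36. Points are gene copies read by their brightest probe set, filled where the adjusted p is under 0.05, and black bars are list medians. The granulocyte and macrophage genes have medians of -2.25 at NF32 and -0.92 at NF36.

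Markers of other cells that the explants could hold were read in the same way. Of 20 red cell copies at NF32, 13 passed lower and 1 higher (median -0.96), and their summed intensity was 850 to 2283 in Ptf1a explants against 6437 to 11847 in GFP explants. The copies with the smallest p were fech.L (-0.92), urod.L (-1.77) and alas2.L (-1.82), all for enzymes of haem synthesis, and nfe2.S was the one higher (0.42). The globin copies hba2.L (-4.25), hbe1.L (-3.81), hba-l5.L (-3.56) and hbd.S (-3.37, limma adjusted p = 0.0554) changed more than any member. The globin copies hba3.L (-3.15), hba4.S (-2.82) and the dim hbg2.L (-0.87) did not. At NF36 2 of 23 passed lower, gata1.S and urod.L, and 18 with the batch block (median -0.76), with sums of 1437 to 5867 in Ptf1a explants against 4660 to 10450 in GFP explants. The NF32 count of 13 was 4 without GFP replicate 1 or Ptf1a replicate 1, 3 without GFP replicate 2 and 9 or 10 without any of the other 3 arrays, and nfe2.S passed in none of these fits. The NF36 count of 2 was 0 without GFP replicate 1, 3 or 4 or Ptf1a replicate 2 or 4, 1 without Ptf1a replicate 1, 4 without GFP replicate 2 and 10 without Ptf1a replicate 3. The part of red cells in the result was not tested.

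Heart markers passed lower at NF32 for 10 of 16 copies (median -0.79), with sums of 2597 to 3448 in Ptf1a explants and 3155 to 3411 in GFP explants. At NF36 0 of 17 heart copies passed in limma, 1 passed higher with the batch block, and 9 had an unadjusted p under 0.05, all with higher values in Ptf1a explants. The share of all probe sets under that unadjusted p was not counted. The heart copies had a median of 0.67 at NF36, with sums of 2420 to 3833 in Ptf1a explants and 877 to 2836 in GFP explants. The members had a median below 0 at both stages, while the heart list had a median below 0 at NF32 and above 0 at NF36. The part of heart tissue in the result was not tested.

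Of 11 endothelial copies 0 passed at either stage in limma without the batch block, and with it 1 passed higher at NF32 (cldn5.L) and 4 at NF36. The share of all probe sets that passed higher with the block was not counted, so these counts are not read as a result. Without the block 3 endothelial copies at each stage had an unadjusted p under 0.05, all with higher values in Ptf1a explants. The share of all probe sets under that unadjusted p was not counted, so these copies are not read as a result. The sums over the 11 copies were 1135 to 1247 in Ptf1a explants against 1019 to 1144 in GFP explants at NF32, and 885 to 1094 in Ptf1a explants against 838 to 911 in GFP explants at NF36. Lymphoid markers had 2 copies of 14 listed genes, and 0 passed at either stage in limma without the block (medians -0.21 at NF32 and -0.16 at NF36). Of them tcf7.S passed lower at NF36 with the block (adjusted p = 0.0341, and 0.225 without it). It also had an unadjusted p under 0.05 at both stages, with lower values in Ptf1a explants, and its gene is also active outside lymphoid cells.

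Batch by batch, the median difference of the member gene copies, each read by its brightest probe set, was -2.45, -2.29 and -1.95 at NF32. That of the red cell markers was -0.98, -1.27 and -0.92, and that of the heart markers -0.83, -0.83 and -0.89. At NF36 the members had -1.29, -1.04, -0.50 and -0.84, the red cell markers -0.88, -0.39, -0.69 and -0.95, and the heart markers 0.49, 0.26, 0.34 and 1.70. The members had the lower median of members and red cell markers in all batches of NF32 and in batches 1 and 2 of NF36, and the red cell markers had it in batches 3 and 4 of NF36. These medians run over copies of unlike brightness, and the offset shrinks the changes of dim ones. They do not rank the lists, as some globin copies changed more than any member at NF32.

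**Figure D5:**
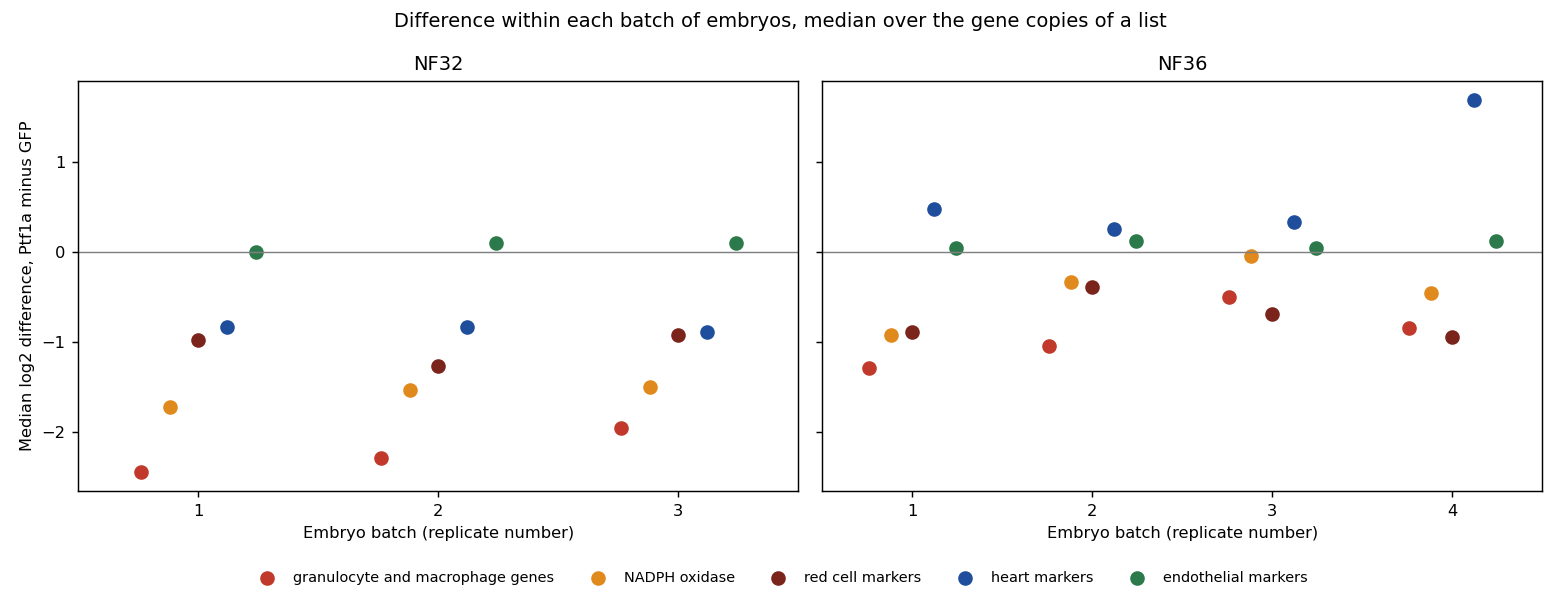
Median log2 difference, Ptf1a minus GFP, over the gene copies of 5 lists within each batch of embryos (x axis) at NF32 and NF36. The granulocyte and macrophage genes lie below 0 in all 7 batches, and the heart markers lie below 0 at NF32 and above 0 at NF36.

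The genes with the nearest profile to the members over all 14 arrays were sought among 5499 candidates bright enough in GFP explants at both stages. Likeness was the root mean square difference, in log2 units, from the mean profile of 9 member copies, after each array was set against the GFP mean of its stage. The genes were picked by their likeness on these same arrays, and the arrays share their batches and scaling. The ranking is therefore a description. Falls and p-values of the picked genes follow from the selection and are no independent support. The nearest was mmp9.1.S (0.24), for a gelatinase that mammalian neutrophils store in granules, with a change of -2.46 ± 0.23 at NF32 (limma adjusted p = 0.00401) and -0.75 ± 0.23 at NF36 (adjusted p = 0.101). It was followed by arhgdib.S (0.32), cybb.L (0.34), dstn.S (0.39), alas2.L (0.39), urod.L (0.41), prdx2.L (0.48) and MGC82602 (0.49). Of these, arhgdib.S and cybb.L are on the myeloid lists above, and alas2.L and urod.L are on the red cell list. The members themselves lay between 0.08 for prss57.L and 0.71 for ctss.S from their mean profile.

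No member neighbours another in the RefSeq gene order. Of 20 neighbouring places, in the assembly Xenopus_laevis_v10.1, 0 hold another member. 4 neighbours were measured at each stage, golph3l.L, cideb.L, fstl3.L and cfd.L, and 0 passed in limma in either direction, a check chosen after the data were seen.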

How the data were processed

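Affymetrix Xenopus laevis arrays were read from the deposited series table, whose values are linear probe set intensity made by the authors. The submitters' processing notes name PLIER, with role and version not given in the sources used here. Values were used as deposited, and the chip named for NF36 in the series description was not settled against the shared probe set IDs. log2(intensity + 16) was fitted with limma 3.58.1 in R 4.3.3 for each stage (22855 and 23614 probe sets), with Benjamini-Hochberg adjustment over all of them. The difference between stages was a contrast over the 22251 shared probe sets. The fits were also run on simulated data with independent noise in each array. Such data hold no batches, so that run does not cover the likeness of same-numbered arrays. Same-numbered arrays come from 1 batch of embryos per the labels' series description. Their deviations from the group means correlated at 0.711, 0.297 and 0.416 at NF32 and at 0.765, 0.670, 0.717 and 0.639 at NF36. Ptf1a and GFP arrays with different numbers correlated at -0.525 to 0.257 at NF32 and at -0.426 to 0.0219 at NF36. The 0.257, of Ptf1a replicate 2 with GFP replicate 3, was close to the 0.297 of the replicate 2 pair. The number was used as a block in an alternative fit. The main fits and the fits without 1 array leave this pairing out.

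The alternatives were other offsets, quantile normalization, median centring, leaving out dim probe sets, limma's trend and robust settings, the block, and leaving out each array. Named genes were all members, from every list up to 6 called genes in order of p, or its 2 genes of lowest p, the 8 most like the members and ptf1a, and the text gives a selection of these. The members and lists were chosen with earlier results of these data known. A gene copy in a list was read by its brightest probe set. Titles call the arrays biological replicates.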

Additional observations from a re-analysis of the deposited data

Results flagged for a closer look

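In Ptf1a replicate 3 of NF36, 3 members stood apart from the other 3 arrays of the group by Dixon's criterion. epx.L read 92.8 there (ratio of gap to range 0.832), prtn3.S 96.8 (0.831) and prss57.L 107.8 (0.944). ctss.L read 6.9 in GFP replicate 1 of NF36 (0.846). 22 groups were checked and 4 had such an array, where chance gives about 1 in 20 for independent groups. The 22 groups are probe sets read on the same arrays, and 3 of the 4 flags come from Ptf1a replicate 3. The count is therefore not compared with chance. The change differed between stages by the limma contrast for both mpo.L probe sets, by 2.01 and 1.45, and for ctss.S, by 0.83.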

How the results depend on the processing

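No member changed its direction under any alternative run. At NF32 10 probe sets passed, between 8 and 10 without 1 array, and 9 with an offset of 1, where mpo.S had adjusted p = 0.0646. At NF36 6 passed, between 1 and 8 without 1 array, 9 with the replicate block and 8 with median centring. For the difference between stages 3 passed, 9 with the replicate block, 0 with an offset of 1, 0 with dim probe sets left out, 1 with quantile normalization, and between 0 and 5 without 1 array. Of the other myeloid genes at NF32 10 passed lower, 6 with an offset of 64, 5 with dim probe sets left out and between 1 and 7 without 1 array. At NF36 2 passed lower, 4 with quantile normalization, 15 with the replicate block and between 1 and 4 without 1 array. Over all probe sets the counts that passed lower shifted as well without 1 array, from 274 to between 73 and 236 at NF32. At NF36 they went from 446 to between 97 and 481. The cause of these shifts was not tested. The size of a change depends on the offset, with member medians of -3.44 at NF32 and -1.23 at NF36 for an offset of 1, and -1.16 at NF32 and -0.44 at NF36 for 64. Dim members such as prss57.S and ctss.L lie where signal over background is least.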
